A study of Ginkgo biloba with 2 samples.

Results

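Of 188 names of predicted microRNAs (miRNAs) in the small RNA tables of Ginkgo biloba leaves, 55 were listed above 0 in both the female and the male library, and these 55 names are described here. They were chosen on their own levels, as the names with a value above 0 in each library, matched by name. Another 48 names had a value in female leaves only, 44 had one in male leaves only and 41 were at 0 in both. The material was mature leaf of female trees and of male trees, all about 30 years old and grown under natural conditions, with 1 library per sex. No treatment is given in the labels, and whether each was made from 1 tree or from pooled trees is not stated. The library of female leaves had 13193290 reads in all, that of male leaves 12137619. Since there was 1 library per sex, the values of female and male leaves below compare these libraries without a replicate check, and no p-value was computed.

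In plants, a miRNA is cut from the hairpin of a longer transcript by a Dicer-like enzyme and is loaded into an ARGONAUTE protein, which it guides to target transcripts by base pairing. Known miRNAs are recognised by matching reads to sequences already recorded in other species. Predicted miRNAs are instead proposed from the reads themselves, as a rule where a stack of reads lies on a stretch that can fold into a hairpin. miRNAs restricted to 1 plant lineage are in many species made at low levels, whereas the deeply conserved families tend to be abundant. Ginkgo is the last living member of an old gymnosperm lineage and bears its ovules and pollen on separate trees. The level tables give no sequence, target or function for the predicted names. The authors' lists of predicted targets use other identifiers that could not be matched to these names, so no sequence is printed and no role is given for any of them.

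Levels of the 55 shared names spanned almost 4 orders of magnitude in each library. The unit is RPM, the reads of a name scaled to a library of 1000000 reads. In female leaves they ran from 0.455 to 4036 RPM with a median of 18.1 RPM, and in male leaves from 0.577 to 4025 RPM with a median of 15.4 RPM. At 100 RPM or more stood 17 names in female leaves and 16 in male leaves, from 10 to 100 RPM 16 and 14, from 1 to 10 RPM 15 and 20, and below 1 RPM 7 and 5. The plot of levels by name shows the whole range, from a pair of dominant names to names of a few reads.

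**Figure D1:**
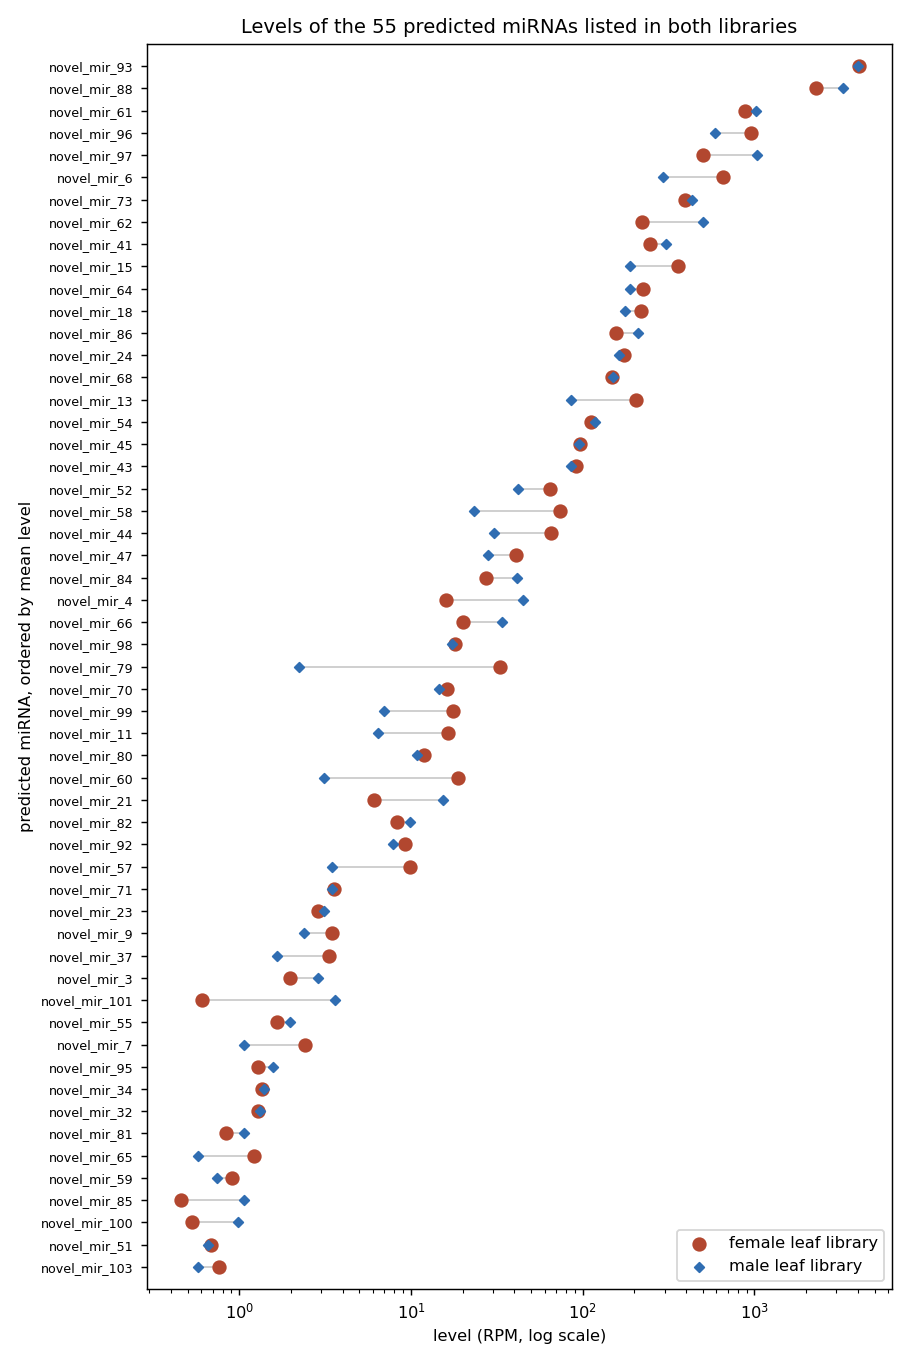
Level in RPM (log scale) of each of the 55 predicted miRNAs listed in both libraries, ordered by mean level from top to bottom. Circles are the female leaf library, diamonds the male leaf library, with 1 library each, and grey lines join the values of a name. novel_mir_93 lies at the top with near equal values, and novel_mir_79 shows the widest gap.

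The highest name in both libraries was novel_mir_93, with 4036 RPM in female leaves (53244 reads) and 4025 RPM in male leaves (48856 reads). The female over male ratio was 1.003, with an exact 95% interval of 0.9904 to 1.015 for counting error (log2 0.00376, which turned to -0.0638 as a share of the predicted reads). It ranked at place 6 of the 633 known and predicted names with reads in female leaves and at place 7 of 631 in male leaves. The next was novel_mir_88, with 2273 RPM in female leaves and 3264 RPM in male leaves, at places 13 and 8 of all names. Its ratio of 0.696 (interval 0.686 to 0.707) made it the largest single difference in RPM among the shared names, at -990.7 RPM female minus male.

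Below this pair, 15 names had mean levels of 100 RPM or more, and most of them lay within 2-fold between the libraries. novel_mir_61 stood at 876 RPM in female leaves and 1014 RPM in male leaves (ratio 0.863, interval 0.842 to 0.886), a direction that turned when values were scaled by the median ratio of known names (log2 0.0195). For novel_mir_96, 953 RPM in female leaves and 588 RPM in male leaves gave a ratio of 1.62 (1.58 to 1.67). novel_mir_73 had 394 and 434 RPM in female and male leaves (ratio 0.907, 0.872 to 0.942), again turning with that scaling (log2 0.0898). novel_mir_41 had 247 RPM in female leaves and 306 RPM in male leaves, and novel_mir_15 had 358 and 189 RPM. The ratio of the last, 1.90 (1.81 to 1.998), lay just inside 2-fold and passed it with the same scaling (log2 1.16).

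The remaining names of this level ran close together. novel_mir_64 had 223 RPM in female leaves and 189 RPM in male leaves, novel_mir_18 had 217 and 175 RPM, and novel_mir_24 had 174 and 162 RPM, each a little higher in female leaves. novel_mir_86 was higher in male leaves, with 156 RPM in female leaves and 210 RPM in male leaves (ratio 0.744, 0.701 to 0.789). The intervals of 2 further names held equal levels. novel_mir_68 had 148 RPM in female leaves and 150.3 RPM in male leaves, and novel_mir_54 had 112 and 118 RPM, with directions that turned under scaling by known names (log2 0.21 and 0.16 by their median ratio).

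At 100 RPM or more, 4 of the 17 names (23.5%) were at least 2-fold apart, 2 in each direction, beside 40.8% of 71 known names of this level with 5 or more reads in each library (21.1% higher in female leaves and 19.7% higher in male leaves). Higher in female leaves were novel_mir_6, with 659 RPM in female leaves and 293 RPM in male leaves (ratio 2.25, interval 2.16 to 2.34), and novel_mir_13, with 204 and 85.2 RPM (ratio 2.39, 2.22 to 2.57). In the other direction, novel_mir_97 had 501 RPM in female leaves and 1039 RPM in male leaves, 2.07-fold higher in male leaves (2.01 to 2.14). novel_mir_62 had 222 RPM in female leaves and 499 RPM in male leaves, 2.25-fold higher in male leaves (2.15 to 2.35). With scaling by the median ratio of known names both of these came within 2-fold (log2 -0.82 for novel_mir_97 and -0.94 for novel_mir_62), and relative to known reads so did novel_mir_97 (-0.94). All 4 intervals (23.5% of the 17 names) lay wholly beyond 2-fold on the library scale, beside 39.4% of the known names of this level. Counting error is small beside the differences of these 4 names, while the spread between trees was not measured.

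Among names with mean levels from 10 to 100 RPM, some were far apart. Here 8 of 17 names (47.1%) were at least 2-fold apart, 6 higher in female leaves (35.3%) and 2 higher in male leaves (11.8%). Of 69 known names of this level 39.1% were so far apart, 14.5% higher in female leaves and 24.6% higher in male leaves. With 10 RPM added to both values, 3 and 1 of the predicted names stayed 2-fold apart. The widest ratio of all 55 names was that of novel_mir_79, with 32.8 RPM (433 reads) in female leaves and 2.22 RPM (27 reads) in male leaves, a ratio of 14.8 (interval 9.999 to 22.6; log2 3.88, or 1.81 with 10 RPM added). Next came novel_mir_60, with 18.9 RPM (249 reads) in female leaves and 3.13 RPM (38 reads) in male leaves, a ratio of 6.03 (4.27 to 8.72; log2 2.59, or 1.14 with 10 RPM added). novel_mir_58 had 73.8 RPM in female leaves and 23.2 RPM in male leaves, a ratio of 3.19 (2.79 to 3.65). These were the only names of this level, higher in female leaves, whose intervals lay wholly beyond 2-fold. In either direction 23.5% of the predicted names of this level had such intervals, beside 37.7% of the known names.

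The other names of this level beyond 2-fold in the female direction were novel_mir_11, novel_mir_99 and novel_mir_44, and their intervals reached below 2-fold. With 10 RPM added all 3 came within 2-fold (log2 0.69, 0.70 and 0.89). novel_mir_11 had 16.5 RPM (218 reads) in female leaves and 6.43 RPM (78 reads) in male leaves, a ratio of 2.57 (interval 1.98 to 3.37). novel_mir_99 was alike, with 17.5 and 6.92 RPM (ratio 2.53, 1.96 to 3.29). For novel_mir_44, 65.0 RPM in female leaves and 30.5 RPM in male leaves gave 2.13 (1.88 to 2.41). Higher in male leaves were novel_mir_4, with 15.9 RPM (210 reads) in female leaves and 44.8 RPM (544 reads) in male leaves, 2.82-fold (2.40 to 3.32), and novel_mir_21, with 6.06 RPM (80 reads) in female leaves and 15.4 RPM (187 reads) in male leaves, 2.54-fold (1.95 to 3.34). With 10 RPM added novel_mir_21 came within 2-fold (log2 -0.66).

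The 9 names of this level within 2-fold were split between close and moderate differences. novel_mir_45 stood at 96.4 RPM in female leaves and 94.7 RPM in male leaves (ratio 1.02, interval 0.940 to 1.10, turning as a share of predicted reads), novel_mir_43 at 91.2 and 85.3 RPM and novel_mir_98 at 18.1 and 17.2 RPM. novel_mir_70 had 16.2 RPM in female leaves and 14.5 RPM in male leaves, and novel_mir_80 had 11.8 and 10.8 RPM. The intervals of all 5 of these names held equal levels. Further apart were novel_mir_52, with 64.9 RPM in female leaves and 41.9 RPM in male leaves (1.55, 1.39 to 1.73), and novel_mir_47, with 41.1 and 28.0 RPM (1.47, 1.28 to 1.68). novel_mir_84, with 27.3 RPM in female leaves and 41.6 RPM in male leaves, and novel_mir_66, with 20.2 and 33.8 RPM, were higher in male leaves, at ratios of 0.656 (0.571 to 0.752) and 0.597 (0.510 to 0.698).

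**Figure D2:**
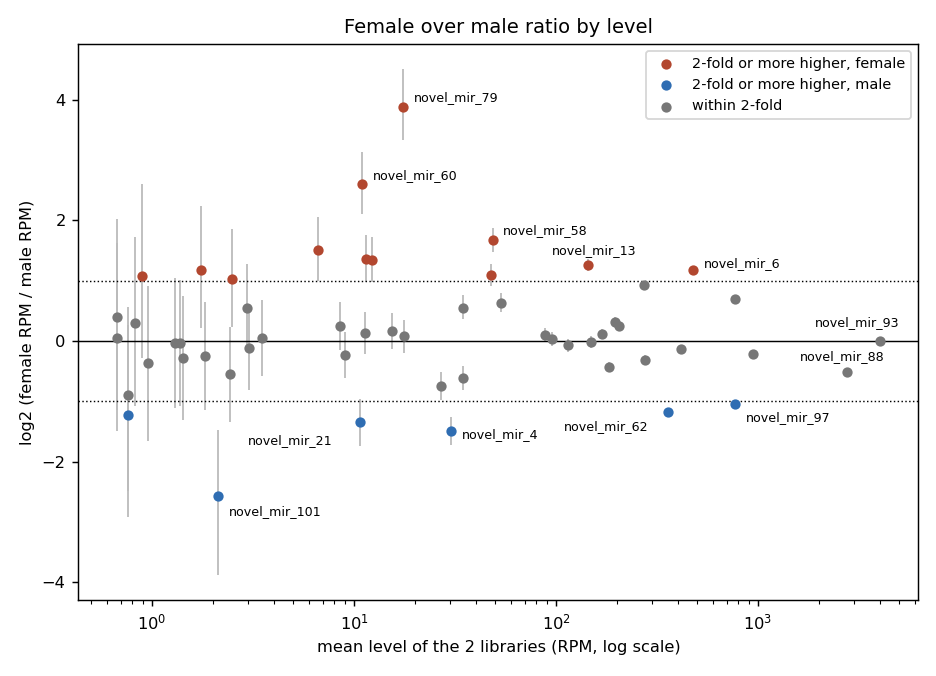
log2 of female RPM over male RPM of each of the 55 shared predicted miRNAs against the mean level of the libraries in RPM (log scale). Bars are exact 95% intervals for counting error, dotted lines mark 2-fold, and colours mark names at least 2-fold higher in female leaves, at least 2-fold higher in male leaves, or within 2-fold. Intervals shrink from left to right, and the widest ratios lie between 1 and 100 RPM.

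Below a mean of 10 RPM, reads were few and most ratios could not be told from equal. At least 2-fold apart were 6 of 21 names (28.6%), 4 higher in female leaves and 2 higher in male leaves. Of 107 known names of this level 38.3% were, 11.2% higher in female leaves and 27.1% higher in male leaves. Of the 21, 17 had intervals that held equal levels, 3 lay wholly above and 1 wholly below. Those above were novel_mir_57 with 9.85 RPM (130 reads) in female leaves and 3.46 RPM (42 reads) in male leaves (ratio 2.85, interval 1.997 to 4.13), novel_mir_37 with 44 and 20 reads (2.02, 1.17 to 3.62) and novel_mir_7 with 32 and 13 reads (2.26, 1.16 to 4.70). The name below was novel_mir_101, with 8 reads in female leaves and 44 reads in male leaves (0.606 and 3.63 RPM), which was 5.98-fold higher in male leaves (2.78 to 14.7). It was the only one of the 21 (4.76%) whose interval lay wholly beyond 2-fold, beside 22.4% of the known names of this level. novel_mir_65, with 16 and 7 reads in female and male leaves, and novel_mir_85, with 6 and 13 reads, also passed 2-fold, but their intervals held equal levels. With 1 RPM added, novel_mir_37 (log2 0.71), novel_mir_7 (0.73), novel_mir_65 (0.49) and novel_mir_85 (-0.51) came within 2-fold. novel_mir_57 (1.28) and novel_mir_101 (-1.53) stayed beyond it. With 10 RPM added both fell within 2-fold (0.56 and -0.36), but any name below 10 RPM in both libraries must do so, whatever its ratio. As a share of predicted reads novel_mir_37 also lay within 2-fold (0.95).

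Among the other names of this level, novel_mir_82 had 8.34 RPM in female leaves and 9.80 RPM in male leaves, and novel_mir_92 had 9.25 and 7.83 RPM. novel_mir_71 had 47 and 42 reads and novel_mir_23 had 38 and 38 reads, novel_mir_9 had 46 and 29, novel_mir_3 had 26 and 35, and novel_mir_55 had 22 and 24. These values of female and male leaves differed by no more than their counting error. The same held for novel_mir_34 with 18 reads in female leaves and 17 in male leaves, novel_mir_32 with 17 and 16, and novel_mir_95 with 17 and 19. At the lower end, novel_mir_81 had 11 and 13 reads, novel_mir_59 had 12 and 9, and novel_mir_100 had 7 and 12. The lowest by mean level were novel_mir_51, with 9 reads in female leaves and 8 in male leaves, and novel_mir_103, with 10 and 7.

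Across all levels, 18 of the 55 names (32.7%) were at least 2-fold apart, 12 higher in female leaves and 6 higher in male leaves. Over the 247 known names with 5 or more reads in both libraries, 39.3% were at least 2-fold apart, 15.0% higher in female leaves and 24.3% higher in male leaves. The shares of predicted names were 21.8% and 10.9% in these directions. Both sets were chosen on having reads in both libraries, which leaves out names of 1 library, so these shares are a description. Scaled by the median ratio of known names, 13 shared names were at least 2-fold higher in female leaves and 4 in male leaves. No count of the known names with this scaling is given here. The log2 female over male ratio had a median of 0.0497 over the 55 names and -0.23 over the 247 known names. The median of the shared names turned to -0.0179 as shares of predicted reads and to -0.0188 over the names at 100 RPM or more in at least 1 library.

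Intervals wholly beyond 2-fold were found for 9 shared names, 5 higher in female leaves and 4 higher in male leaves, or 16.4% of the 55, beside 31.6% of the known names. Intervals excluded equal levels for 30 of the 55 names, 18 higher in female leaves and 12 in male leaves, beside 70.4% of the known names. Such a count depends on the number of reads as well as on the ratios. It was 14 of 17 names at mean levels of 100 RPM or more, 12 of 17 from 10 to 100 RPM and 4 of 21 below 10 RPM, or 82.4%, 70.6% and 19.05%, beside 98.6%, 81.2% and 44.9% of the known names of these levels.

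Known names carry a sequence in each library, which the predicted names lack, and this allowed a closer description. Where a known name had 1 listed sequence shared by the libraries, 26.2% of 145 names were at least 2-fold apart. Where the listed sequences differed, 57.8% of 102 were, beside 32.7% of the shared predicted names. By direction, 7.59% of the same-sequence names were higher in female leaves and 18.6% in male leaves. These shares were 25.5% and 32.4% for different sequences, and 21.8% and 10.9% for the predicted names. Intervals wholly beyond 2-fold were found for 22.1% and 45.1% of these known names, beside 16.4% of the shared predicted names. The median size of the log2 ratio, with its sign dropped, was 0.52 for the shared predicted names (1.44-fold), 0.51 for known names with the same sequence (1.42-fold) and 1.35 for those with different sequences (2.55-fold). The largest sizes were 3.88 for the predicted names and 3.53 for known names with the same sequence, whereas those with different sequences reached 13.6. The sources used here do not give whether a predicted name stands for the same sequence in each library.

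**Figure D3:**
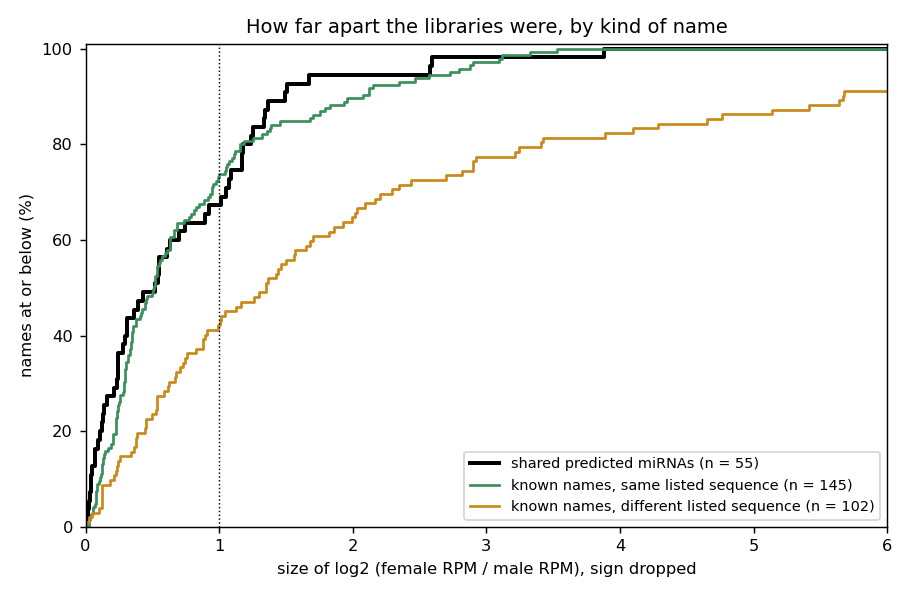
Share of names (%) whose log2 ratio between the female and male libraries, with its sign dropped, is at or below the value on the horizontal axis. The line of the 55 shared predicted miRNAs runs near that of 145 known names with the same listed sequence and above that of 102 known names with different listed sequences; the dotted line marks 2-fold, and ratios past the right end of the axis are not drawn.

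The spread of the log2 ratios over names is given here beside that of the known names and beside counting error, which leaves out any difference between trees or library preparations. At 100 RPM or more the SD over predicted names was 0.69 and over known names 3.23, where counting error alone gives 0.0357 for the predicted names. From 10 to 100 RPM the SD was 1.37 for predicted and 2.29 for known names, with 0.15 from counting, and without novel_mir_79, left out after its value was seen, that of the predicted names was 1.10. Below 10 RPM it was 0.90 for predicted and 1.49 for known names, with 0.50 from counting. Each class held 17 to 21 predicted names. The known names of these classes include names whose listed sequences differ between the libraries. Over all levels the SD was 1.03 for the 55 predicted names and 1.06 for the 145 known names with the same listed sequence. It was 3.42 for the 102 known names with different listed sequences.

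Ranks within the shared set were largely kept. Between the libraries the median change was 3 places, 45 of 55 names moved by 5 places or fewer, and 8 of the 10 highest and 19 of the 20 highest names were the same. The 4 names that moved by more than 10 places were novel_mir_79 (place 24 in female leaves and 42 in male leaves), novel_mir_101 (53 and 35), novel_mir_4 (32 and 20) and novel_mir_60 (27 and 38.5, a tie). The rank correlation (Spearman) was 0.95 across the 55 names and 0.78 across the 247 known names, which include names with different listed sequences. Over the level classes, the Pearson correlation of log2 levels was 0.90 across the 17 shared names at 100 RPM or more. It was 0.51 across the 17 from 10 to 100 RPM and 0.75 across the 21 below 10 RPM. These are descriptions across names, which share their libraries and are not replicates, and a narrow range of levels lowers such a value.

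The shared names held most of the predicted reads. Reads of all predicted names came to 197698 in female leaves and 173553 in male leaves. Shared names made up 83.0% of these in female leaves (exact 95% interval 82.9 to 83.2%) and 93.0% in male leaves (92.8 to 93.1%). Without the 2 highest names, the rest held 40.9% and 42.0% of the same reads. Among all reads their share was 1.24% (1.24 to 1.25%) in female leaves and 1.33% (1.32 to 1.34%) in male leaves. Predicted names found in 1 library held the other 17.0% of the female and 7.05% of the male predicted reads.

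Most of these reads came from a handful of names. novel_mir_93 and novel_mir_88 together gave 42.1% of predicted reads in female leaves and 50.98% in male leaves, and the 10 names highest by mean level gave 70.2% and 81.5%. Within the shared reads, 2 names were enough for 50% in both libraries, and 14 in female leaves and 12 in male leaves for 90%. In total the shared names were 1.07-fold higher in male leaves, with 12444 RPM in female leaves and 13291 RPM in male leaves. Without the 2 highest names the sums were 6135 and 6002 RPM, 1.02-fold higher in female leaves (interval 1.01 to 1.03), so the direction of the total rested on that pair. It also rested on the scaling: the total was 1.10-fold higher in female leaves after scaling by the median ratio of known names and 1.01-fold higher there relative to known reads, and without the pair it was 1.03-fold higher in male leaves relative to predicted reads. The 21 names below 10 RPM in both libraries together held 748 reads in female leaves and 622 reads in male leaves, 0.378% and 0.358% of the predicted reads.

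**Figure D4:**
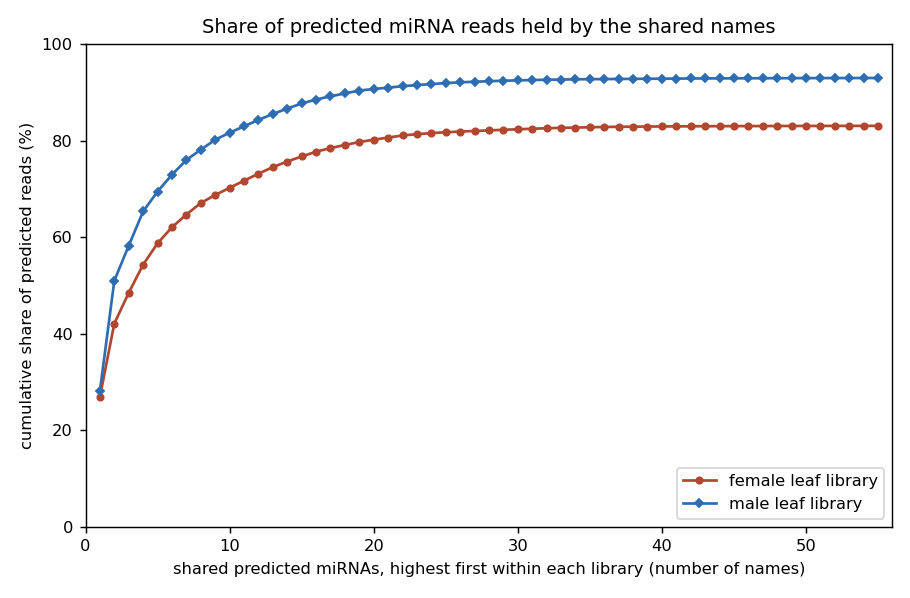
Cumulative share of all predicted miRNA reads (%) held by the 55 shared names, ordered from the highest within each library; circles are the female and diamonds the male leaf library. The curves end at 83.0% in female leaves and 93.0% in male leaves, and 2 names already hold 42.1% and 50.98%.

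The median level of the shared names was above that of names found in 1 library, and the ranges overlapped. The rule asks for a value above 0 in both libraries, which can by itself leave out names of few reads. This gap is therefore a description. The median of the 48 names of the female library alone was 1.67 RPM and that of the 44 names of the male library alone 0.865 RPM, beside 18.1 and 15.4 RPM for the shared names. At 10 RPM or more were 60% of the shared names in female leaves and 54.5% in male leaves, 33.3% of the female-only and 15.9% of the male-only names. At the edge of the rule, the lowest shared values were 6 reads in female leaves (novel_mir_85) and 7 reads in male leaves (novel_mir_65 and novel_mir_103). The lowest value above 0 in either table was 5 reads, and whether a 0 stands for fewer reads or for a name not predicted in that library is not stated. Names of 1 library also reached high levels: novel_mir_22 had 760.1 RPM, novel_mir_78 had 422 RPM and novel_mir_33 had 293 RPM in female leaves, and novel_mir_138 had 395 RPM, novel_mir_124 had 218 RPM and novel_mir_115 had 177 RPM in male leaves, each listed at 0 in the other.

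**Figure D5:**
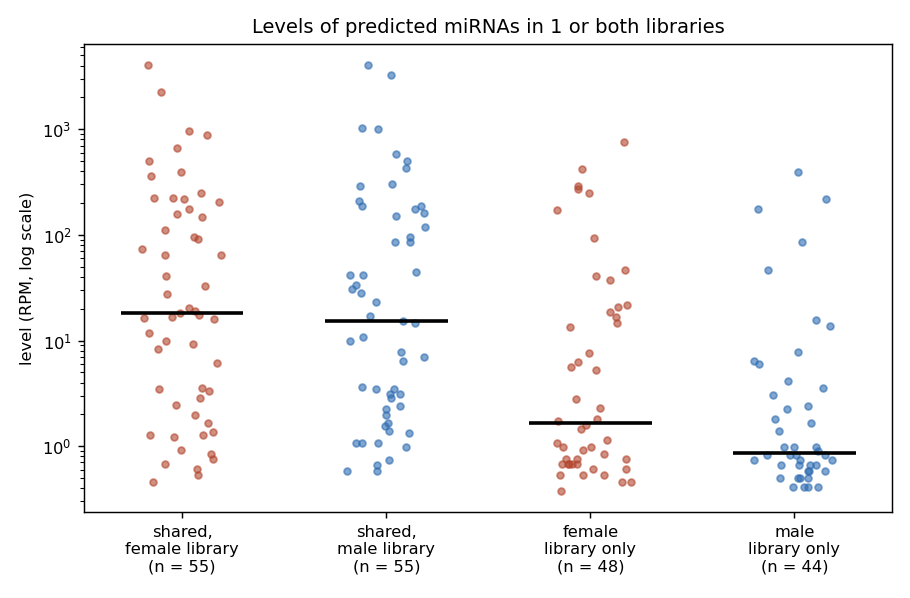
Level in RPM (log scale) of predicted miRNAs in the female and male leaf libraries, for the 55 shared names in each library, the 48 names of the female library alone and the 44 names of the male library alone. Each point is a name and black bars are medians, which are 18.1, 15.4, 1.67 and 0.865 RPM from left to right; sideways scatter has no meaning.

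The numbers in the shared names ran from 3 to 103, within the run of 1 to 103 that held every name with a female value, while the male-only names were numbered 104 to 147. Within that run, shared names were 9 of 20 from 1 to 20, 6 of 20 from 21 to 40, 13 of 20 from 41 to 60, 11 of 20 from 61 to 80 and 14 of 20 from 81 to 100. How the numbers were given is not stated in the sources used here.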

How the data were processed

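Small RNA libraries of female and male ginkgo leaves, 1 per sex, were compared from tables deposited by the authors. The labels give total RNA extraction and standard Illumina library preparation. The sources used here name no aligner, miRNA database or prediction tool. The level tables, named TPM in the authors' files, hold RPM: every deposited value of a predicted name was a whole number of reads over the library total, to within 0.01 read (100% of values). That total came from the deposited read counts of known names, a second kind of table. A single read equals 0.0758 RPM in the library of female leaves and 0.0824 RPM in that of male leaves.

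From these, female over male ratios were computed without a pseudocount, since both values exceed 0, with exact 95% intervals (conditional binomial, Clopper-Pearson; scipy 1.17.1, Python 3.11.15). Intervals cover counting error only, as PCR reads without molecular identifiers are not independent molecules. Known names with 5 or more reads in both libraries served for comparison. Names at least 2-fold apart were counted. The rule for named members was the 10 highest by mean level, the 8 largest ratios and 5 largest rank changes in each direction, the lowest in either library, the 5 nearest to equal at 10 RPM or more in both, and the 3 highest names of each single library. The other members were added after their values were seen. Members, rules and lists were chosen with earlier results of these data known. Ratio intervals were tested only on simulated independent counts, the case that the intervals assume. That test therefore does not cover reads that are not independent molecules. The alternatives were other pseudocounts, minimum levels, scalings and thresholds, and, chosen after the data were examined, leaving out the 2 highest names (also with their reads kept in the total) or the name of the highest ratio. Target tables were not used.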

Additional observations from a re-analysis of the deposited data

How the results depend on the processing

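With 1 library per sex no replicate could be left out. No paired analysis was possible because each sex has a single library. The count of 18 shared names at least 2-fold apart (12 higher in female leaves, 6 in male leaves) became 8 (5 and 3) with 10 RPM added to both values, 4 (2 and 2) among names at 100 RPM or more in at least 1 library, where fewer names were counted, and 9 (5 and 4) when the exact interval had to lie wholly beyond 2-fold. Names below 10 RPM in both libraries, 6 of the 18, cannot stay 2-fold apart with 10 RPM added. With 1 RPM added, a minimum of 10 RPM, any scaling or a 1.5-fold threshold the count ran from 12 to 24. In each of these more names passed the threshold with the female value higher, except at 100 RPM or more, where the counts were equal. Of the known names 39.3% were at least 2-fold apart as reported, and 31.6% had intervals wholly beyond 2-fold. No count of the known names under the other settings is given here, so the other counts are a description without a comparison.

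The median log2 ratio of 0.0497 became 0.0327 with 1 RPM and 0.0224 with 10 RPM added, 0.10 with a minimum of 10 RPM, 0.28 with scaling by the median ratio of known names, 0.16 as shares of known reads and 0.0732 without the 2 highest names. It reversed to -0.0188 with a minimum of 100 RPM and to -0.0179 as shares of predicted reads. The shared names' portion of predicted reads, 83.0% in female leaves and 93.0% in male leaves, became 82.1% and 92.4% over members at 10 RPM or more in both. Without the 2 highest names it became 40.9% and 42.0% of all predicted reads, or 70.7% and 85.6% where the reads of these names were also taken out of the total.

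Of the 55 names, 11 changed direction under some scaling, all with reported log2 ratios between -0.21 and 0.0497. By the median ratio of known names these were novel_mir_23 (log2 0.11), novel_mir_32 (0.20), novel_mir_34 (0.19), novel_mir_54 (0.16), novel_mir_61 (0.0195), novel_mir_68 (0.21) and novel_mir_73 (0.0898). As shares of known reads, novel_mir_32 (0.0752), novel_mir_34 (0.0702), novel_mir_54 (0.0343) and novel_mir_68 (0.0893) turned likewise. As shares of predicted reads, novel_mir_45 (-0.0412), novel_mir_51 (-0.0179), novel_mir_71 (-0.0257) and novel_mir_93 (-0.0638) turned. Each scaling shifts every log2 ratio by 1 constant (0.23 upwards, 0.11 upwards and 0.0676 downwards in this order), so these are the names whose ratio lay between 0 and that shift. Of the 18 names at least 2-fold apart, 10 came within 2-fold with 10 RPM added and 4 with 1 RPM added. For 6 of these 10 names, below 10 RPM in both libraries, the outcome with 10 RPM added was fixed in advance. Reads were few for the names below 10 RPM, where 17 of 21 intervals held equal levels. Intervals excluded equal levels for 19.05% of these names and for 44.9% of the known names of this level. Counting error gives an alike spread of log2 ratios in both, 0.50 and 0.51.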

Other observations

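Some predicted names had the same number of reads, or numbers 1 apart, in 1 library and not in the other. Names with 100 or more reads numbered 53 in female leaves and 38 in male leaves. Among them were 4 such pairs in female leaves and 2 in male leaves. novel_mir_41 had 3261 reads in female leaves beside 3260 for novel_mir_40, the name numbered just before it, while in male leaves novel_mir_41 stood at 306 RPM and novel_mir_40 at 0. novel_mir_47 and novel_mir_72 each had 542 female reads, and novel_mir_11 and novel_mir_28 each had 218, with novel_mir_72 and novel_mir_28 listed at 0 in male leaves. novel_mir_44 and novel_mir_52 had 857 and 856 female reads but 30.5 and 41.9 RPM in male leaves. In the male library, novel_mir_15 and novel_mir_64 had 2289 and 2288 reads and novel_mir_13 and novel_mir_43 had 1034 and 1035. These pairs were picked out after their values were seen, and how often names of such levels fall this close by chance was not tested.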
